A study of Mus musculus with 14 samples.

Results

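The genes described here are 9 gasdermin and inflammasome genes, which are Gsdmd, Gsdme, Ninj1, Casp1, Casp4, Pycard, Nlrp3, Aim2 and Il18. They were taken by symbol from a table of 36118 genes measured in the hippocampus of 14 mice, and each symbol matched 1 gene. The mice formed 4 groups, with 4 wildtype mice in room air (WT-RA), 4 wildtype mice in hyperoxia (WT-O2), 3 GSDMD knockout mice in room air (KO-RA) and 3 GSDMD knockout mice in hyperoxia (KO-O2). Hyperoxia was 85% O2 from postnatal day (P) 1 to P14, the room air mice were kept in room air over the same days, and all tissue was collected at P15. The KO is global and homozygous, a short CRISPR/Cas9 deletion within Gsdmd, so it is not limited to any cell type, and the WT mice were littermates. Each mouse gave 1 library, and the mice are numbered here within their group.

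In canonical pyroptosis, sensors such as NLRP3 and AIM2 recruit the adaptor ASC, which Pycard encodes, and this assembly activates caspase-1. Caspase-1 cleaves GSDMD, whose freed N-terminal part forms pores in the cell membrane, and it also matures the cytokines IL-1β and IL-18, which leave the cell through those pores. Mouse caspase-11, which Casp4 encodes, cleaves GSDMD in response to intracellular lipopolysaccharide, caspase-3 cleaves GSDME, and NINJ1 carries out the final rupture of the membrane. These proteins are regulated to a large extent by cleavage and assembly, which mRNA counts do not measure. In brain, microglia are known as a main source of inflammasome components.

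Depth set what could be seen of each gene. The libraries held 27272270 to 28257496 estimated counts. Casp4 had the fewest counts of the 9 genes, with 10.4 to 25.9 per library and a median of 17.2. A count of that size carries a counting error of 24.8% (the Poisson error at the mean count). Nlrp3 had 19 to 52 counts per library, Casp1 23 to 76, Gsdmd 22 to 63, Aim2 44.9 to 96.2 and Pycard 64.9 to 101.9, with counting errors of 18.0%, 15.1%, 14.9%, 12.2% and 10.8%. Ninj1 had 361 to 708 counts, Gsdme 471 to 675 and Il18 403 to 525, with counting errors below 5% (4.4%, 4.2% and 4.8%). All 9 genes were retained by the low count filter of edgeR, which left 16637 genes for testing. Differences are given as log2 fold changes with SE from edgeR's quasi-likelihood test, and q is that test's p after Benjamini-Hochberg adjustment across all tested genes. Calls required an absolute log2 fold change of 0.32 or more, p below 0.05 and q below 0.1, the thresholds of the study's methods. Levels are TMM-scaled CPM (counts relative to library size), which are not corrected for gene length and are therefore compared between groups and not between genes.

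Some facts of the libraries bear on the comparisons. One WT-O2 mouse (mouse 4) is called hyperoxia by its title and column name and room air by its treatment field, and it was kept as WT-O2. Read as room air, it ends the calls of Gsdmd and Il33 in KO-O2 vs WT-O2, of Zdhhc9 in WT-O2 vs WT-RA and of Txnip in WT-O2 vs WT-RA and KO-RA vs WT-RA. No batch is named, but WT and KO mice come from separate ranges of animal numbers, so genotype and such a range cannot be told apart. The 8 striatal markers summed to 326 to 761 CPM in the WT libraries and to 136 to 230 CPM in the KO libraries, and 8 of 8 were called lower in KO mice under either exposure. In room air, all 10 hippocampal markers were called higher and all 7 oligodendrocyte markers lower in KO mice. Thalamic markers summed to 70.2 to 443 CPM in WT and 113 to 125 CPM in KO libraries. Of these 8 markers, 5 were called lower in KO mice under each exposure, and 1 had a positive difference. The 6 choroid plexus markers summed to 930 to 2429 CPM in WT libraries. Among KO libraries they reached 3417 CPM, but only 37.6 CPM in KO-RA mouse 1 and 107 CPM in KO-O2 mouse 2. No choroid plexus marker was called in any comparison, and the part of this spread was not tested. The 14 microglial markers summed to 489 to 545 CPM in WT and 503 to 573 CPM in KO, and 0 of 14 were called in any comparison by edgeR or by DESeq2, with 0 to 5 of 14 at an unadjusted p below 0.05. In bulk tissue, fewer cells of a type and less RNA per cell cannot be told apart.

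**Figure D1:**
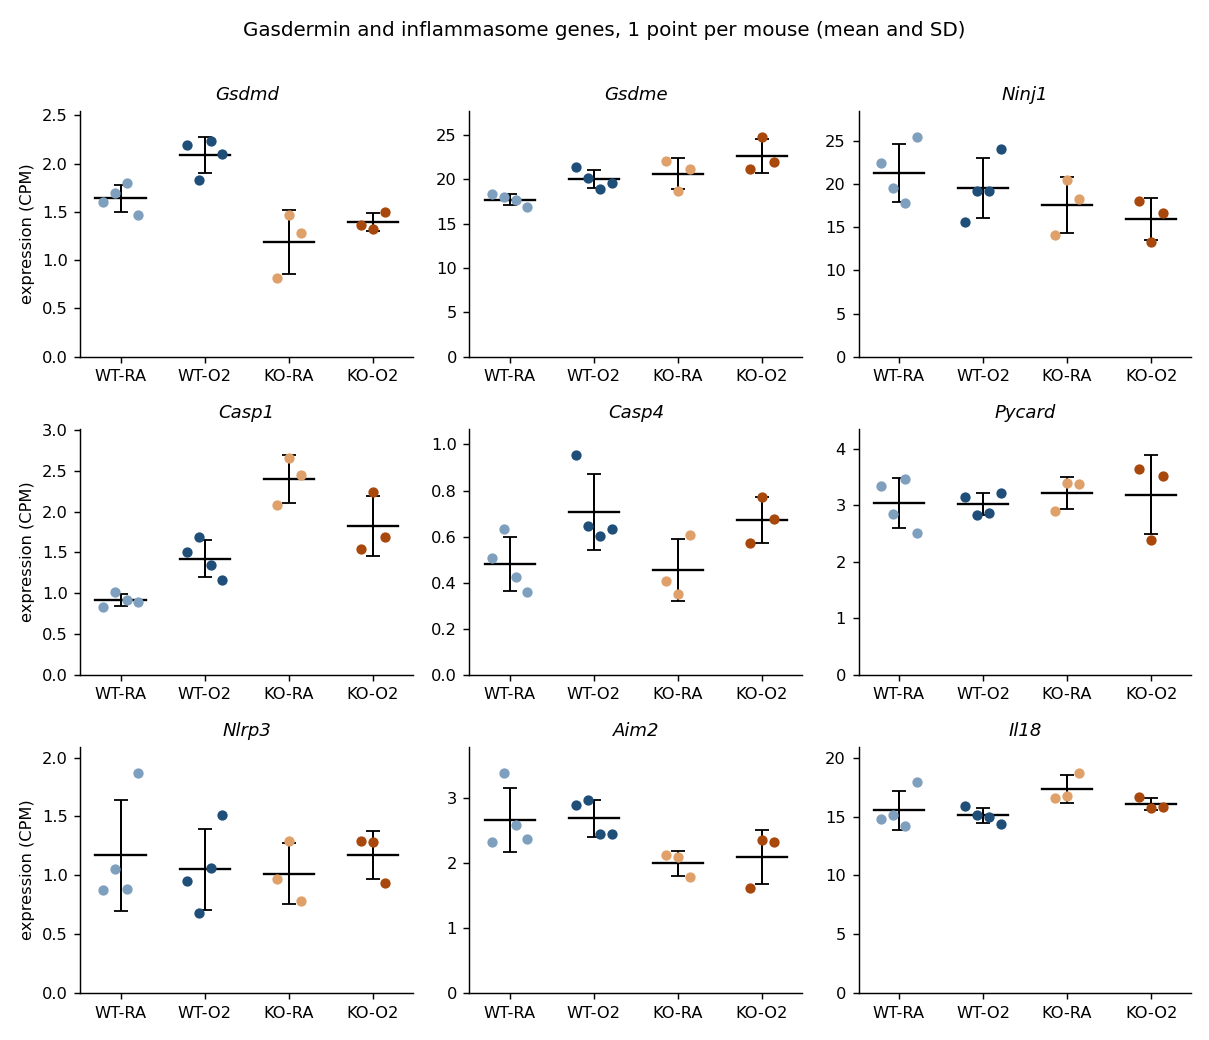
Expression of the 9 genes in CPM (vertical axes, starting at 0) in the 4 groups, with 1 point per mouse, the group mean as a horizontal bar and the SD as an error bar (n = 4 per WT group and 3 per KO group). Casp1 was lowest in the 4 WT-RA mice (0.837 to 1.02 CPM). Its mean was highest in the KO-RA mice (2.08 to 2.66 CPM), a range that also held KO-O2 mouse 2 (2.24 CPM). Gsdmd and Aim2 lay lower in KO than in WT mice of the same exposure. The groups compared overlapped for Pycard, Nlrp3 and Il18.

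Casp1 and Casp4 lie next to each other on mouse chromosome 9, with Casp12 following them, in the RefSeq annotation. Their promoters are shown here because Casp1 differed between the groups most among the 9 genes and Casp4 was not called in any comparison. The sequences are from RefSeq (GRCm38.p6, an older build than the GRCm39 build of the counts) and run from 250 bases before to 50 bases after the annotated start. They were searched on both strands for the interferon-stimulated response element, TTCNNNGAA (a gamma-activated site), TGANTCA (an AP-1 site) and CACGTG (an E-box). Capitals mark the match found.
Casp1, chr9:5298267-5298566, plus strand: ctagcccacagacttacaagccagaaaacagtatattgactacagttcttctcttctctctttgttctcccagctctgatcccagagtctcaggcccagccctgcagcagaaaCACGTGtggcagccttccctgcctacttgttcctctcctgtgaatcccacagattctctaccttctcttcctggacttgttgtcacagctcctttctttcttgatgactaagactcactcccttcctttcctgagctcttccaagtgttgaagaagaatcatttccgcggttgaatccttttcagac
Casp4, chr9:5308599-5308898, plus strand: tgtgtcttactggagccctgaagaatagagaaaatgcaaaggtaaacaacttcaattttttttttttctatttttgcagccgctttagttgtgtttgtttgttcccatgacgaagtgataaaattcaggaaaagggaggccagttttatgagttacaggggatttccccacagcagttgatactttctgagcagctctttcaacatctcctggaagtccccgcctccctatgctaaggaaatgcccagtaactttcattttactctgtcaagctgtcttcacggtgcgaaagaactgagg
The single match was an E-box in the Casp1 promoter, whose first base lies at -137 from the start. Of 32544 promoters of this length, 7.17% hold that motif, 3.45% the interferon-stimulated response element, 8.33% the gamma-activated site and 7.79% the AP-1 site. The Casp4 sequence, like those of Gsdme, Pycard, Nlrp3, Aim2, Il18 and Ninj1, held no match to the 4 motifs. A match is a run of letters and not a measured site, and its absence from this window says nothing of the factors. Of the 9 genes, 8 matched an entry, and Gsdmd did not.

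Gsdmd, the pore former of pyroptosis and the gene targeted in the KO, was counted in all 14 libraries, at 1.47, 1.60, 1.69 and 1.80 CPM in WT-RA mice and 1.83, 2.10, 2.20 and 2.23 CPM in WT-O2 mice. KO-RA mice had 0.817, 1.28 and 1.47 CPM and KO-O2 mice 1.32, 1.36 and 1.5 CPM. Transcript was thus counted in every KO library, and since counts are summed over a gene they do not show the deletion itself. The lowest WT-RA library exceeded the highest KO-RA library narrowly (1.471 against 1.469 CPM). In KO mice of both exposures together, Gsdmd was 0.696-fold the WT level and was called lower (log2 fold change -0.52, SE 0.14, edgeR q = 0.016). In hyperoxia alone it was called at -0.58 (SE 0.19, edgeR q = 0.0962), and this call was lost in 20 of 25 alternative settings, which include leaving out any 1 of the 4 WT-O2 or the 3 KO-O2 mice. In room air the difference was -0.46 (SE 0.20, edgeR q = 0.168). With striatal and thalamic marker scores as covariates the difference over both exposures was -0.27 (SE 0.47, edgeR q = 0.903).

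Hyperoxia did not give a called difference of Gsdmd in either genotype. WT-O2 mice averaged 2.09 ± 0.18 CPM and WT-RA mice 1.64 ± 0.14 CPM (SD, n = 4 each), and every WT-O2 value lay above every WT-RA value, with a log2 fold change of 0.35 (SE 0.17, edgeR q = 0.442). In KO mice the difference was 0.23 (SE 0.21, edgeR q = 0.997) and the groups overlapped. Over both genotypes it was 0.29 (SE 0.14, edgeR q = 0.433).

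Gsdme encodes the gasdermin that caspase-3 opens. It had 16.9, 17.6, 18.0 and 18.3 CPM in WT-RA mice, 18.9, 19.6, 20.2 and 21.4 CPM in WT-O2 mice, 18.8, 21.2 and 22.1 CPM in KO-RA mice and 21.2, 22.01 and 24.8 CPM in KO-O2 mice. The WT-RA mice thus had the 4 lowest values of all 14, and the KO-O2 group the highest mean. Over both exposures KO exceeded WT by 0.20 on the log2 scale (SE 0.06, edgeR q = 0.0199), a 1.15-fold difference that passed the p and q thresholds and not the fold change threshold. The same held in room air (0.22, SE 0.08, edgeR q = 0.09005), while in hyperoxia the difference was 0.18 (SE 0.08, edgeR q = 0.227). WT-O2 exceeded WT-RA by 0.18 (SE 0.07, edgeR q = 0.335) without overlap, and over both genotypes O2 exceeded RA by 0.15 (SE 0.06, edgeR q = 0.28). None of these differences of Gsdme reached the fold change threshold.

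Ninj1, which encodes the protein of final membrane rupture, ran from 17.7 to 25.4 CPM in WT-RA mice, from 15.6 to 24.1 in WT-O2 mice, from 14.1 to 20.4 in KO-RA mice and from 13.2 to 18.0 in KO-O2 mice. Every pair of groups overlapped, and the group means were 21.3 ± 3.3, 19.5 ± 3.5, 17.6 ± 3.2 and 15.9 ± 2.4 CPM (SD). Over both exposures KO lay 0.28 below WT on the log2 scale (SE 0.12, edgeR q = 0.112), which was called without WT-O2 mouse 1, KO-RA mouse 2 or KO-O2 mouse 1, with -0.27 in room air and -0.29 in hyperoxia. The sign of all 3 differences turned with striatal and thalamic marker scores as covariates (0.56, 0.57 and 0.56), and none of them was called. The striatal score was 0.127 to 1.199 in WT and -1.45 to -0.468 in KO mice, so this fit separates it poorly from genotype. Its values ran opposite to those of Gsdme over the 14 libraries (Pearson r = -0.81, and -0.75 after subtracting group means), which share the same libraries and normalization.

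Casp1, which encodes the caspase that cleaves GSDMD, differed most. WT-RA mice 1 to 4 had 23, 29, 26 and 25 estimated counts, and WT-O2 mice 1 to 4 had 41, 47, 38 and 33. KO-RA mice 1 to 3 had 56, 76 and 69, and KO-O2 mice 1 to 3 had 43, 61 and 45. The 4 lowest of the 14 values were those of the 4 WT-RA mice, and all KO-RA values exceeded all WT values. The group means were 0.918 ± 0.077 CPM in WT-RA, 1.42 ± 0.22 in WT-O2 mice, 2.40 ± 0.29 in KO-RA mice and 1.82 ± 0.37 in KO-O2 mice (SD).

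In room air, Casp1 rose 2.6-fold from WT to KO mice (log2 fold change 1.38, SE 0.19, edgeR q = 0.000587). This call was kept in 24 of 25 alternatives, at 1.301 to 1.538, and was lost with striatal and thalamic marker scores as covariates, where the difference was 1.34 (SE 0.49, edgeR q = 0.44). With the microglial marker score as a covariate it was 1.54 (SE 0.26, edgeR q = 0.0127). In hyperoxia, KO exceeded WT by 0.36 (SE 0.19, edgeR q = 0.343) and the groups overlapped. Over both exposures Casp1 was called higher in KO mice, by 1.83-fold (0.87, SE 0.14, edgeR q = 0.000465), and this was lost with the striatal and thalamic scores (0.80, SE 0.46, edgeR q = 0.596).

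The exposure differences of Casp1 had opposite signs in the 2 genotypes. WT-O2 lay above WT-RA without overlap, by 0.63 (SE 0.19, edgeR q = 0.18), and KO-O2 lay below KO-RA with overlap, by -0.40 (SE 0.20, edgeR q = 0.997). The interaction of genotype and exposure was -1.02 (SE 0.27), with an unadjusted p of 0.00193 in edgeR's test and a q of 0.9999 over all genes, so it did not pass the correction. In rising order the group means were WT-RA, WT-O2, KO-O2 and KO-RA. Of the neighbours in this order, WT-O2 and KO-O2, as well as KO-O2 and KO-RA, overlapped, and WT-RA and WT-O2 did not overlap but did not differ after correction.

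Casp4, which encodes caspase-11, was not called in any comparison. It had 10.4 to 18.3 counts in WT-RA mice, 16.9 to 25.9 in WT-O2 mice, 10.4 to 17.4 in KO-RA mice and 16.2 to 20.8 in KO-O2 mice, which correspond to mean levels of 0.482, 0.708, 0.454 and 0.673 CPM. The genotype differences were -0.08 in room air (SE 0.31) and -0.07 in hyperoxia (SE 0.29), with edgeR q values of 0.918 and 0.937. The exposure differences were 0.55 in WT (SE 0.28, edgeR q = 0.446) and 0.56 in KO (SE 0.32, edgeR q = 0.997), and over both genotypes 0.56 (SE 0.21, edgeR q = 0.324), with overlap in both genotypes. Casp12, the next gene on the chromosome, had 8 to 29 counts, and its difference between KO-RA and WT-RA was -0.31 (SE 0.40, edgeR q = 0.725).

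**Figure D2:**
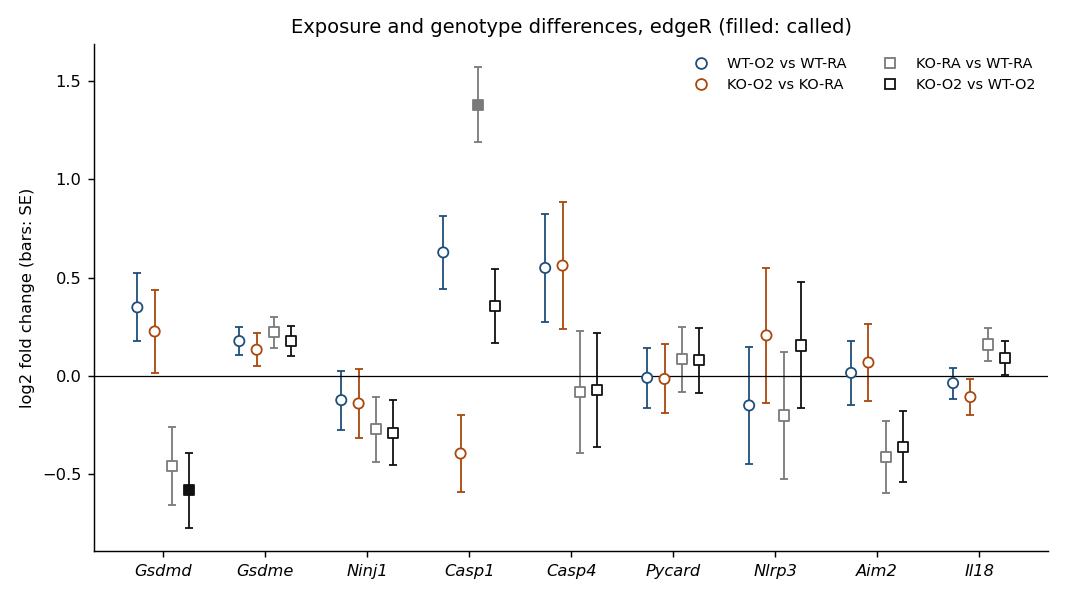
Log2 fold changes of the 9 genes (vertical axis) with SE as error bars, for the exposure differences in each genotype (circles) and the genotype differences under each exposure (squares), where filled symbols passed the call thresholds. The 2 filled points are Casp1 in KO-RA vs WT-RA (1.38) and Gsdmd in KO-O2 vs WT-O2 (-0.58), and Casp4, Pycard and Nlrp3 have SE bars that reach 0 for both genotype differences.

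Aim2, the sensor of cytosolic double-stranded DNA, was lower in KO mice. It had 2.33, 2.37, 2.58 and 3.38 CPM in WT-RA mice and 2.44, 2.45, 2.89 and 2.98 CPM in WT-O2 mice. The KO-RA mice had 1.78, 2.10 and 2.12 CPM and the KO-O2 mice 1.61, 2.33 and 2.35 CPM. Each KO group lay below the WT group of its exposure without overlap. Over both exposures Aim2 fell to 0.764-fold the WT level (log2 fold change -0.39, SE 0.13, edgeR q = 0.0491), and the call was lost in 7 of 24 alternatives, among them leaving out WT-RA mouse 2 (-0.31, q = 0.102), KO-RA mouse 3 (-0.34, q = 0.134) or KO-O2 mouse 1 (-0.31, q = 0.12) in edgeR's test. It was also lost with the microglial covariate (-0.31, edgeR q = 0.402) and with the striatal and thalamic covariates (-0.80, edgeR q = 0.563). Neither exposure alone gave a call, at -0.42 in room air (SE 0.18, edgeR q = 0.181) and -0.36 in hyperoxia (SE 0.18, edgeR q = 0.308). Hyperoxia differed from room air by 0.01 in WT (SE 0.17) and 0.07 in KO (SE 0.20).

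Nlrp3, the sensor of potassium efflux and membrane damage, and Pycard, the adaptor of both sensors, gave no call. The counts of Nlrp3 were 24, 30, 25 and 52 in WT-RA mice, 26, 19, 30 and 43 in WT-O2 mice, 26, 37 and 22 in KO-RA mice and 36, 35 and 25 in KO-O2 mice. WT-RA mouse 4 and WT-O2 mouse 4 had the highest values of Nlrp3, and all pairs of groups overlapped. Its log2 fold changes lay between -0.20 and 0.21 with SEs of 0.30 to 0.35. Pycard averaged 3.04 ± 0.44 CPM in WT-RA, 3.02 ± 0.20 in WT-O2 mice, 3.22 ± 0.28 in KO-RA mice and 3.19 ± 0.70 in KO-O2 mice (SD). Its log2 fold changes lay between -0.02 and 0.08 with SEs of 0.15 to 0.18.

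Il18 encodes the cytokine that caspase-1 matures alongside IL-1β. It averaged 15.5 ± 1.6 CPM in WT-RA, 15.1 ± 0.6 in WT-O2 mice, 17.3 ± 1.2 in KO-RA mice and 16.1 ± 0.5 in KO-O2 mice (SD), and the groups overlapped in all 4 comparisons. The exposure differences were -0.04 in WT (SE 0.08, edgeR q = 0.901) and -0.11 in KO (SE 0.09, edgeR q = 0.997). The genotype differences were 0.16 in room air (SE 0.09, edgeR q = 0.285) and 0.09 in hyperoxia (SE 0.09, edgeR q = 0.652). With these SEs Il18 is among the most precisely measured of the 9 genes. Il1b could not be compared, since it had 0 to 10 counts per library and did not pass the filter. Il1a, the other classical IL-1 cytokine, had 11 to 38 counts, and its differences ran from -0.66 in WT-O2 vs WT-RA (SE 0.34, edgeR q = 0.47) to 0.52 in KO-O2 vs WT-O2 (SE 0.37, edgeR q = 0.512). Il1a, Il1b and Casp12 were added after their values were seen.

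Counted over the 9 genes, the response to hyperoxia gave 0 calls in WT mice, where 0.643% of all tested genes were called, and 0 in KO mice, where 0.012% were called. At an unadjusted p below 0.05, 2 of 9 genes passed in WT (12.2% of all genes) and 0 of 9 in KO (4.86% of all genes). Over both genotypes 0 of 9 were called against 0.337% of all genes, with 2 of 9 at an unadjusted p below 0.05 against 11.8%. DESeq2 in place of edgeR also called 0 of 9 in each of these comparisons. The WT groups did not overlap for 3 of 9 genes, Gsdmd, Gsdme and Casp1, each higher in WT-O2, and for 5.99% of all genes. The KO groups did not overlap for 0 of 9 genes and for 11.8% of all genes.

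The genotype comparisons gave 1 call of 9 in room air (Casp1, higher), where 10.4% of all genes were called, and 1 of 9 in hyperoxia (Gsdmd, lower), where 6.86% were called. Over both exposures 3 of 9 were called, Casp1 higher and Gsdmd and Aim2 lower, and 12% of all genes were called. KO-RA and WT-RA did not overlap for 4 of 9 genes (Gsdmd, Gsdme, Casp1 and Aim2) and for 19.6% of all genes, and KO-O2 and WT-O2 for 2 of 9 (Gsdmd and Aim2) and 19.0% of all genes. Gsdmd, the gene targeted in the KO, is in the 1 of 9 in hyperoxia, the 3 of 9 and both counts without overlap. With numbers this small, 1 of 9 is near the share of all genes. The interaction was called for 0 of 9 genes and for 0% of all genes, where 1 of 9 and 4.05% had an unadjusted p below 0.05 and DESeq2 also called 0 genes. The median log2 fold change of the 9 genes was 0.01 in WT-O2 vs WT-RA, 0.07 in KO-O2 vs KO-RA, -0.08 in KO-RA vs WT-RA and 0.08 in KO-O2 vs WT-O2, beside medians over all genes of -0.009 to -0.002.

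Beside the genotype differences, other marker lists moved. The 8 markers of neutrophils and monocytes, cells that also express Casp1, summed to 1.11 to 2.36 CPM in WT-RA, 1.54 to 2.24 in WT-O2 mice, 1.45 to 2.80 in KO-RA mice and 2.15 to 7.23 in KO-O2 mice, and 5 of 8 passed the filter, while Ly6g and Camp had under 10 counts in every library. Of the 5, 0 were called in KO-RA vs WT-RA, the comparison in which Casp1 rose, by edgeR or by DESeq2. At an unadjusted p below 0.05 in edgeR's test were 2 of them, Mpo (higher) and Ly6c2 (lower). The median log2 fold change of the 5 there was 1.00, beside 1.38 for Casp1. It was 1.94 for S100a9 (edgeR q = 0.25), 1.74 for Ngp (edgeR q = 0.285) and 1.00 for Mpo (edgeR q = 0.124). The monocyte markers did not rise alike, with 0.06 for Ccr2 (edgeR q = 0.96) and -0.85 for Ly6c2 (edgeR q = 0.188). The part of these 5 markers in the Casp1 result was not tested. Over both exposures 3 of the 5, S100a9, Ngp and Mpo, were called higher in KO mice. The 8 markers summed to 7.23 CPM in KO-O2 mouse 2 and to at most 3.56 CPM in every other library. At such low levels a gene can pass the filter through the libraries where it is higher. This was not tested for these 3 genes, and their calls are given as a description. Of the 14 microglial markers, 14 had a positive log2 fold change in KO-RA vs WT-RA with a median of 0.11, against 1.38 for Casp1, and 12 of 14 in WT-O2 vs WT-RA with a median of 0.06, against 0.63 for Casp1. The 8 astrocyte markers summed to 3869 to 4459 CPM in WT and 4541 to 5291 CPM in KO libraries, without overlap. In KO mice 2 of 8 were called higher in room air (Gfap and Slc1a3) and 2 in hyperoxia (Slc1a2 and Slc1a3). The log2 fold change was positive for 6 of 8 under either exposure. Aldh1l1 went the other way, at -0.21 in room air (edgeR q = 0.0429, below the fold change threshold) and -0.15 in hyperoxia (edgeR q = 0.214). S100b was at -0.19 in room air and Aqp4 at -0.003 in hyperoxia. The part of the astrocyte differences was not tested. The part of the striatal, thalamic, oligodendrocyte and hippocampal differences in the genotype results was not tested beyond the covariate fits given above.

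**Figure D3:**
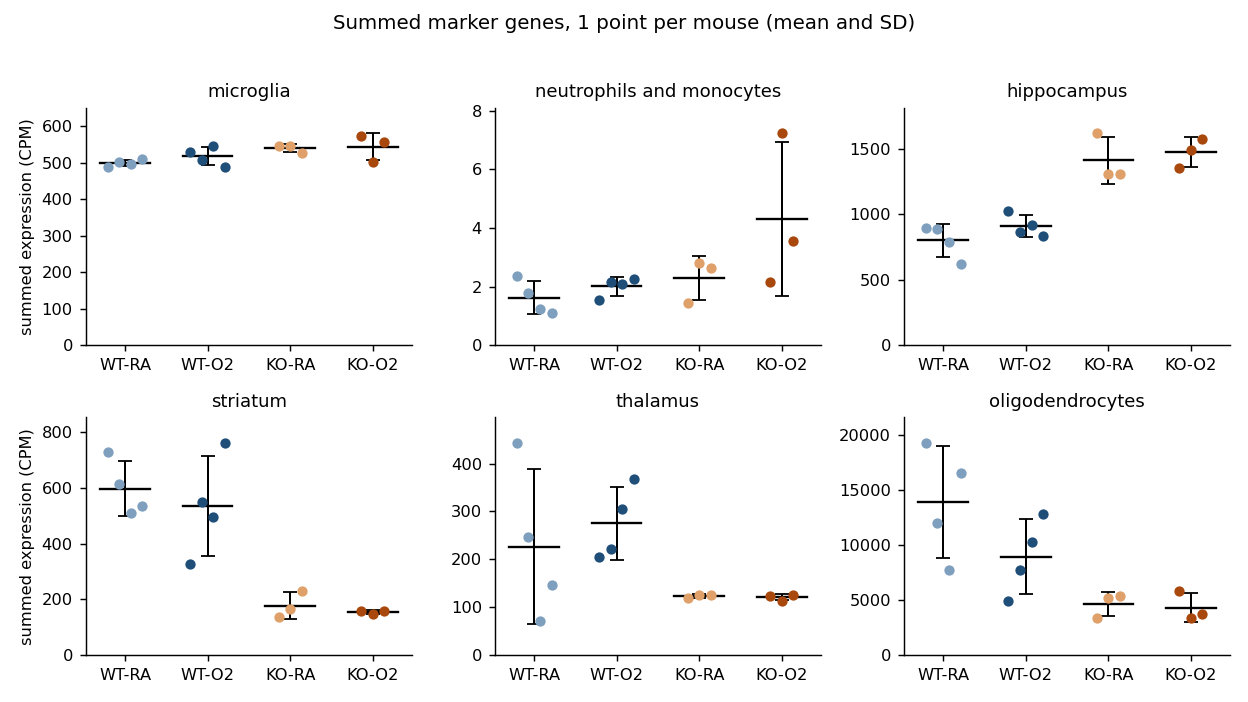
Summed CPM of marker genes (vertical axes, starting at 0) for 6 cell types or regions in the 4 groups, with 1 point per mouse, the mean as a bar and the SD as an error bar. Striatal sums were 326 to 761 CPM in WT mice and 136 to 230 CPM in KO mice, while microglial sums lay between 489 and 573 CPM in all 14 mice.

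Around these 9 genes, 114 genes of the pathway were listed by role, of which 113 were in the table and 87 were tested. In WT-O2 vs WT-RA 1 rose and 1 fell (2.3% of the 87), in KO-O2 vs KO-RA 0 were called (also 0 by DESeq2, with 5 at an unadjusted p below 0.05), in KO-RA vs WT-RA 2 rose and 2 fell (4.6%), and in KO-O2 vs WT-O2 none rose and 2 fell (2.3%). These shares are to be read beside the 0.643%, 0.012%, 10.4% and 6.86% of all genes. Over both exposures 3 were called higher and 4 lower in KO mice (8.05%, beside 12% of all genes), and these include Il1r1, higher, and Nod1, lower, which are named after their values were seen. The genes called higher in KO-RA vs WT-RA and over both exposures include Gsdma2. Its place among the tested genes rests on the libraries where it was higher, as described below.

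Among the 25 tested regulators of assembly, Txnip was called. Txnip encodes thioredoxin-interacting protein, which binds NLRP3 and is known as a glucose- and redox-responsive gene. It had 18.2 to 33.7 CPM in WT-RA mice, 37.7 to 41.6 in WT-O2 mice, 29.2 to 37.1 in KO-RA mice and 44.3 to 59.4 in KO-O2 mice, without overlap between the exposures in either genotype. It rose 1.59-fold in WT-O2 (log2 fold change 0.67, SE 0.15, edgeR q = 0.0872), and this call held in 10 of 25 alternatives and was lost when any of the 4 WT-O2 mice was left out. In KO mice the difference was 0.62 (SE 0.18, edgeR q = 0.782). Over both genotypes Txnip was called higher in O2 than in RA (0.65, SE 0.12, edgeR q = 0.0397). With WT-O2 mouse 4 as room air, no tested gene was called higher in that comparison. The KO also had more Txnip in room air, where it was called (0.46, SE 0.17, edgeR q = 0.0942), in 7 of 25 alternatives. The list's median was -0.04 in WT-O2 vs WT-RA and -0.06 in KO-RA vs WT-RA.

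Among the 19 tested genes of pore control and membrane repair, Zdhhc9 and Ninj2 were called. Zdhhc9 encodes a palmitoyltransferase, an enzyme class that palmitoylates GSDMD. It had 97.1 to 124 CPM in WT-RA mice, 75.7 to 92.4 in WT-O2 mice, 59.0 to 63.7 in KO-RA mice and 60.1 to 64.4 in KO-O2 mice. The WT-O2 values thus lay below all WT-RA values and above all KO values. Zdhhc9 fell by 0.36 in WT-O2 vs WT-RA (SE 0.08, edgeR q = 0.0728), by 0.82 in KO-RA vs WT-RA (SE 0.09, edgeR q = 9.65e-05) and by 0.44 in KO-O2 vs WT-O2 (SE 0.09, edgeR q = 0.00692), and it differed by 0.02 between KO-O2 and KO-RA (SE 0.09). The first call held in 12 of 25 alternatives (lost without WT-RA mouse 1, 2 or 4 or WT-O2 mouse 1, 2 or 3), the second in 24 and the third in 23, and with striatal and thalamic scores as covariates both genotype calls were lost, at -0.43 and -0.02. In WT-O2 vs WT-RA 7 of 7 oligodendrocyte markers had a negative difference (median -0.63) and 9 of 10 hippocampal markers a positive one (median 0.29), with 0 called in either list by edgeR or by DESeq2 and 1 and 3 at an unadjusted p below 0.05, and their part in the Zdhhc9 difference was not tested. Ninj2, a paralog of Ninj1 known from glia, had 26 to 48 counts in WT-RA mice, 19 to 46 in WT-O2 mice, 7 to 27 in KO-RA mice and 9 to 23 in KO-O2 mice. It fell by 1.24 in KO-RA vs WT-RA (SE 0.41, edgeR q = 0.0741), a call lost in 9 of 24 alternatives (including those without WT-RA mouse 1, 2 or 4 or KO-RA mouse 1 or 2) and reversed in sign with the striatal and thalamic scores. The list's medians were -0.07 in WT-O2 vs WT-RA, -0.02 in KO-RA vs WT-RA and -0.04 in KO-O2 vs WT-O2.

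Among the 9 tested cytokines and receptors, Il33, an alarmin of the IL-1 family, was called in KO-O2 vs WT-O2. It had 13.0 to 15.3 CPM in WT-O2 mice, 7.96 to 9.63 in KO-O2, 5.97 to 13.4 in WT-RA and 9.37 to 11.6 in KO-RA. It fell by 0.68 (SE 0.19, edgeR q = 0.0558), in 16 of 25 alternatives and not without WT-O2 mouse 2 or 4 or any KO-O2 mouse. The Il33 call was also lost with the microglial covariate and with the striatal and thalamic covariates. Over the alternatives that kept all mice, its difference ran from -0.70 to -0.17. In WT-O2 vs WT-RA its difference was 0.45 (SE 0.18, edgeR q = 0.309). The list's median in KO-O2 vs WT-O2 was 0.22, opposite in sign to Il33.

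Of the other gasdermins, 1 of 8 was tested. Gsdma2 had 2 to 7 counts in WT-RA mice, 6 to 12 in WT-O2 mice, 10 to 13 in KO-RA mice and 11 to 13 in KO-O2 mice, and it was called higher in KO-RA vs WT-RA (1.24, SE 0.40, edgeR q = 0.0625), in 14 of 23 alternatives and not without WT-RA mouse 3 or 4 or KO-RA mouse 1 or 3. It was not tested with at least 10 counts required in every library, nor with only the groups compared, so its place among the tested genes rests on the libraries where it was higher, and its difference is given as a description. Whether its paralogs Gsdma and Gsdma3 share reads with it was not tested. The other 7 listed gasdermins did not pass the filter, with at most 9 counts in any library.

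The lists of sensors (11 tested), other caspases (7) and priming genes (15) had 0 calls in each of the 4 comparisons of groups by edgeR and by DESeq2, with 0 to 2 genes of a list at an unadjusted p below 0.05. Genes with the smallest p included Dhx9, Nlrc4 and Ifi207 among the sensors, Casp6 and Casp8 among the caspases and Tlr2, Ly96, Myd88 and Ticam1 among the priming genes. Tlr2, the receptor for bacterial lipoproteins, differed by -1.05 in KO-O2 vs KO-RA (SE 0.29, edgeR q = 0.782). Dhx9, an RNA helicase, differed by 0.20 in WT-O2 vs WT-RA (SE 0.05, edgeR q = 0.136), and Nlrc4, the sensor that works with the NAIP proteins, by -0.52 (SE 0.22, edgeR q = 0.353). Myd88, the adaptor of most Toll-like receptors, differed by -0.40 in the same comparison (SE 0.15, edgeR q = 0.304).

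**Figure D4:**
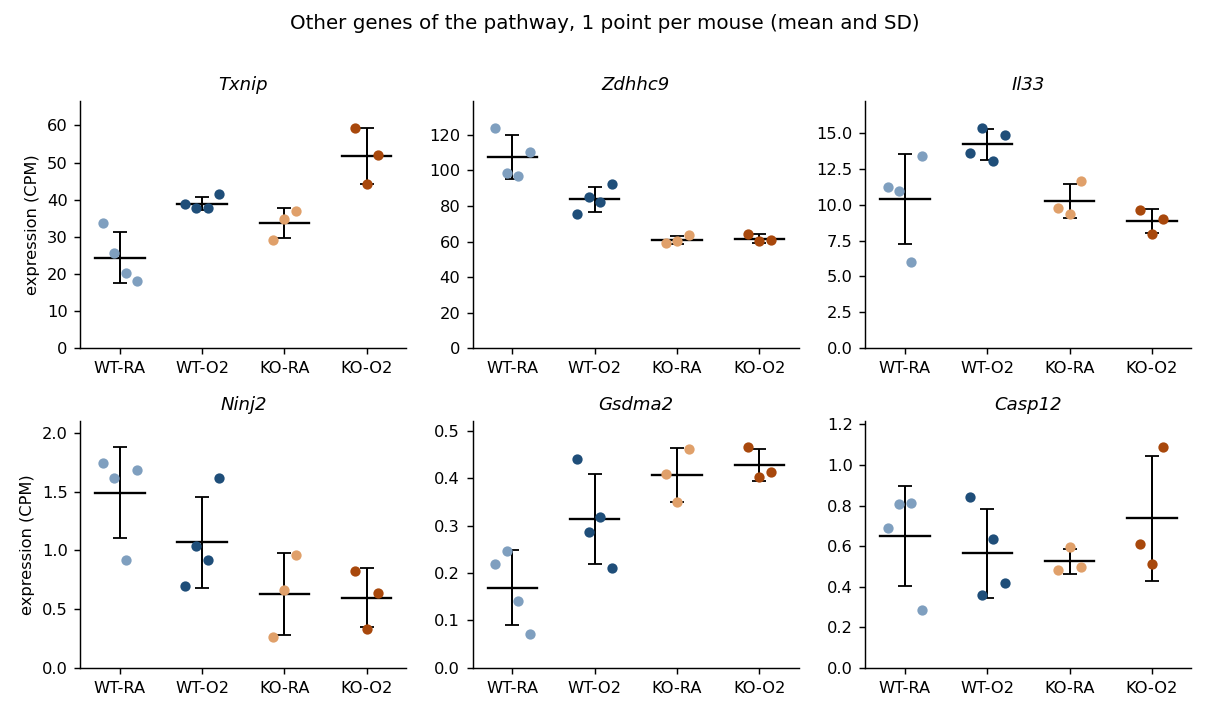
Expression in CPM (vertical axes, starting at 0) of the 5 pathway genes that were called between groups and of Casp12, the neighbour of Casp4, with 1 point per mouse, the mean as a bar and the SD as an error bar. Zdhhc9 had 97.1 to 124 CPM in WT-RA mice, 75.7 to 92.4 in WT-O2 and 59.0 to 64.4 in KO mice, and Txnip was higher in O2 than in RA in both genotypes without overlap. Gsdma2 is shown as a description, since its place among the tested genes rests on the libraries where it was higher.

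Genes that followed the 9 most closely over the 14 libraries lay outside the lists. The highest Pearson correlations of log2 CPM were those of Gsdmd with Hdc (r = 0.93), Slc37a1 (0.89) and Sema3f (0.87), of Gsdme with Fam69c (0.94), Mchr1 (0.94) and Itga4 (0.94), and of Casp1 with Rbm8a (0.93), Crtac1 (0.92) and Ppfia2 (0.90). After subtracting group means, the correlations of Casp1 with these 3 genes were 0.53, 0.60 and 0.29, while Gsdmd with Hdc remained at 0.90. Ninj1 correlated with Metrn (0.96), P4hb (0.95) and Tmem98 (0.95), and after subtracting group means at 0.97, 0.95 and 0.94. Aim2 was closest to Hmgcll1 (0.88), Cpeb3 (0.86) and Ppp1r9a (0.85), Il18 to Emc2 (0.91), Cycs (0.89) and Ramac (0.88), Casp4 to Zmym4 (0.88), Usp24 (0.84) and Itga2 (0.82), Pycard to Pqlc3 (0.83), Mtbp (0.83) and A730049H05Rik (0.82), and Nlrp3 to Mboat4 (0.85), Wdr53 (0.83) and Gm5182 (0.81). These were the highest of the correlations with all tested genes, over libraries that share a normalization, and are given as a description. In an annotation of GRCm38, Gsdme, Pycard, Aim2 and Il18 overlap genes on the opposite strand (Mpp6, Gm45205, Cadm3, and Bco2 with Tex12), and whether reads were assigned by strand is not stated in the sources used here.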

How the data were processed

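RNA-seq was performed on hippocampal RNA of 14 mice, 1 library per mouse. Gene-level estimated counts were deposited, and the study's methods name Kallisto (mouse GRCm39) and tximport as the tools that made them. Tool versions, the scaling of the counts and trimming are not given in the sources used here, and the labels also name DESeq2. Non-whole values made up 41% to 43.2% of each library, and all values were rounded. Samples were grouped by the genotype and exposure in their labels, with the title used where it differed from the treatment field (WT-O2 mouse 4). Mice were numbered in accession order, and the numbers pair nothing. The labels call the mice separate animals.

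Counts were filtered with filterByExpr (16637 of 36118 genes kept), scaled by TMM and modelled in edgeR 4.0.16 (limma 3.58.1, R 4.3.3), where each group had its own coefficient. Differences were tested with edgeR's quasi-likelihood F-test, two-sided, adjusted by Benjamini-Hochberg across all 16637 genes, and called at an absolute log2 fold change of 0.32 or more, p below 0.05 and q below 0.1. KO vs WT over both exposures is the mean of the 2 genotype differences, and O2 vs RA likewise. SE was taken from the fold change and F. log2 CPM used a prior count of 2. No gene of the 9 fell below the filter, so the exact permutation test planned for that case was not needed.

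All 9 genes are named. From each pathway list the genes called in any of the 4 group comparisons or the interaction are named, and otherwise the gene with the smallest p in each. Not every gene this rule gives is reported here. The genes and lists were chosen with earlier results of these data known. Alternatives were a fold change of 1.5, a q of 0.05, DESeq2 1.42.0, its size factors, library size alone, no filter, at least 10 counts in every library, only the groups compared, WT-O2 mouse 4 as room air, marker scores as covariates, and each mouse left out in turn. Promoter sequences are from RefSeq. GRCm38 annotations were used for promoters, neighbours and overlaps alone, and exons, proteins, staining and qRT-PCR were not analysed.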

Additional observations from a re-analysis of the deposited data

Results flagged for a closer look

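The estimated level of Casp4 in WT-O2 mouse 1 was 0.953 CPM, against 0.602 to 0.645 CPM in the other 3 WT-O2 mice. The gap to the nearest mouse, as a share of the group's range, was 0.877, above Dixon's critical value for 4 samples. Of 18 groups of 4 mice examined over the 9 genes this was 1 beyond that value, where chance gives about 1 in 20. These levels rest on 25.9 and on 16.9 to 18.1 counts.

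The exposure difference of Casp1 was 0.63 on the log2 scale in WT mice and -0.40 in KO mice. The interaction was -1.024 (SE 0.27, unadjusted p = 0.00193 in edgeR's test) and drew attention because of that p. It had q = 0.9999 over all genes, so the difference between the genotypes did not pass the correction. Over 24 alternatives the interaction kept its sign, at -1.10 to -1.02, or at -1.20 to -0.92 where 1 mouse was left out.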

How the results depend on the processing

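No paired analysis was made, because the labels call the mice separate animals and their animal numbers name no pairs. The 0 calls among the 9 genes in KO-O2 vs KO-RA, WT-O2 vs WT-RA, the interaction and O2 vs RA stood in every alternative run. In KO-O2 vs WT-O2 the 1 call became 0 with a fold change of 1.5, a q of 0.05, DESeq2, DESeq2's size factors, no filter, WT-O2 mouse 4 as room air and either set of marker covariates, and 0 to 1 with a mouse left out. In KO-RA vs WT-RA the count was 2 (Gsdme and Casp1) with the microglial covariate, 0 with the striatal and thalamic covariates and 1 with any mouse left out. Over both exposures KO vs WT gave 1 with a fold change of 1.5, 0 with the striatal and thalamic covariates, and 2 to 4 with a mouse left out. These covariates move with genotype, and the cause of each change was not tested. Of 1313 single-gene values under alternatives, 1167 kept direction and side of the threshold, 106 lost the call, 4 gained one and 36 changed sign. With the microglial covariate, Casp4 turned to 0.19 in KO-RA vs WT-RA and 0.08 in KO-O2 vs WT-O2, and Pycard to -0.093 and -0.039. With the striatal and thalamic covariates, Pycard turned to 0.014 in WT-O2 vs WT-RA and 0.001 in KO-O2 vs KO-RA, Aim2 to -0.031 in WT-O2 vs WT-RA, Ninj1 to 0.56 in room air, 0.57 in hyperoxia and 0.56 over both, and Ninj2 to 1.16. With WT-O2 mouse 4 as room air, Il18 turned to 0.005 in WT-O2 vs WT-RA. With 1 mouse left out, the signs turned within -0.331 to 0.084 (Casp4, KO-RA vs WT-RA), -0.18 to 0.10 (Casp4, KO-O2 vs WT-O2), -0.095 to 0.057 (Pycard, WT-O2 vs WT-RA), -0.13 to 0.15 (Pycard, KO-O2 vs KO-RA), -0.032 to 0.249 (Pycard, KO-O2 vs WT-O2), -0.38 to 0.16 (Nlrp3, WT-O2 vs WT-RA), -0.42 to 0.12 (Nlrp3, KO-RA vs WT-RA), -0.005 to 0.387 (Nlrp3, KO-O2 vs WT-O2), -0.042 to 0.152 (Aim2, WT-O2 vs WT-RA), -0.024 to 0.225 (Aim2, KO-O2 vs KO-RA) and -0.076 to 0.036 (Il18, WT-O2 vs WT-RA). The counts over all genes moved more. In WT-O2 vs WT-RA 107 became 6 (mouse 4 as room air) to 299 (DESeq2), in KO-O2 vs KO-RA 2 became 0 to 13, in KO-RA vs WT-RA 1738 became 6 (striatal and thalamic covariates) to 1840, in KO-O2 vs WT-O2 1142 became 36 to 1386, in KO vs WT 2004 became 31 to 2047, in O2 vs RA 56 became 1 to 132, and the interaction stayed at 0. With a mouse left out the first count ran from 13 to 272. Counting error was largest for Casp4, Nlrp3, Casp1 and Gsdmd.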
